A study of Homo sapiens with 8 samples.

Results

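SPC24 and the other genes of the Ndc80 and Mis12 complexes, the outer part of the kinetochore, were followed across 8 RNA-sequencing libraries of SET-2 cells. The 8 members, SPC24, SPC25, NDC80, NUF2, MIS12, DSN1, NSL1 and PMF1, were taken by symbol out of 25435 listed symbols, and all 8 were among the 14898 genes that passed the filter on low counts. SET-2 is an established cell line of megakaryoblastic leukemia that followed essential thrombocythemia, and it carries an activating JAK2 mutation. All cells received a GFP-marked guide vector: 4 libraries came from cells with a guide against ZRSR2 (knockout) and 4 from cells with a non-targeting guide (control). Both genotypes were made with guide 1 and guide 2, in experiment 1 (replicates 1 and 2, in guide order) and again in experiment 2 (replicates 3 and 4). RNA of the first biological replicate was taken on day 20 and that of the second on day 25, and reading these as experiments 1 and 2 is an assumption. The knockout samples are cell populations, and the share of edited cells was not analysed here. The labels do not say that libraries came from separate cultures within an experiment, so p-values measure the spread between these libraries.

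The kinetochore is the protein assembly that joins a chromosome's centromere to spindle microtubules in mitosis. The Ndc80 complex is a long rod. NDC80 and NUF2 form the end that grips the microtubule, and SPC24 and SPC25 form the end that faces the chromosome. The Mis12 complex, built from MIS12, PMF1, DSN1 and NSL1, holds the SPC24 and SPC25 end and ties it to the inner kinetochore. ZRSR2 is a splicing factor that helps recognise the end of minor, U12-type introns, a rare class removed by a separate spliceosome, and the series asks what its loss does in a JAK2-driven neoplasm.

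SPC24 was singled out because one of its introns opens with a U12-like start and because its count was lower in knockout. The start is shown here because it sets SPC24 apart from what could be read of its partners. The starts were read from GENCODE 29 transcripts on GRCh38, and they run 5′ to 3′ along the gene. Each line gives the first 12 intron bases, with the 8 bases compared with the U12-type start (ATATCCTT or GTATCCTT) in capitals.
SPC24, intron 4 of 5-exon transcript SPC24-205, first base 11147817 on chromosome 19: GTATCCTTtttg
SPC24, alternative start 52 bases upstream, first base 11147869: GTTAGTAAaatt
NDC80, intron 6 of NDC80-201: GTATTTGAtttg
NUF2, intron 4 of NUF2-201: GTGAGTAAagag
MIS12, intron 1 of MIS12-202: GTAAGTGCtgcg
DSN1, intron 2 of DSN1-201: GTAAGTATtgta
NSL1, intron 3 of NSL1-201: GTAAGATGattt
PMF1, intron 4 of PMF1-201: GTCAGTGTccca
CENPL, an inner kinetochore gene, intron 2 of CENPL-201: GTATGCTTtttg

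The SPC24 start matched GTATCCTT with 0 mismatches. It opens 2 annotated introns, from 11147290 to 11147817 and from 11146280 to 11147817, which occur in 4 annotated transcripts. In SPC24-205 the base before it is coding. The other start 52 bases upstream differs from the U12-type start at 6 of 8 bases and occurs in 2 transcripts. The longer U12-like intron ends in gtacttcaaggttggcccttactcattcag, in which the best match to the consensus of the U12 branch site had 3 mismatches over 8 bases. Across the annotation, 76544 of 367286 introns of at least 60 bases (20.8%) had a start that could be read, and 0.298% of those were exact matches. Of the 7 other members, 28 of 105 introns could be read, and 0 had at most 1 mismatch. No start of SPC25 could be read, so the comparison covers only part of each gene. In the other kinetochore and cell cycle lists, CENPL alone among the readable introns had at most 1 mismatch.

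SPC24 lies on the minus strand of chromosome 19 from 11131520 to 11155808 (GRCh38). MIS12 shares 301 exonic bases (9.53%) with DERL2 on the opposite strand. PMF1 shares 587 exonic bases (23.3%) with the readthrough gene PMF1-BGLAP of its own strand, which had 0 counts in every library. The use of strand in the counting is not given in the sources used here, so reads in bases shared between opposite strands, as with DERL2, could be split.

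Levels are given as CPM, counts normalised to library size with TMM factors applied. Libraries held 31106042 to 71521173 counts, so that 1 count was worth 0.0143 to 0.0324 CPM, and the deepest was control replicate 3. Members had between 386 and 2852 counts per library, so that counting error was small. Megakaryoblast markers were present (GATA1 at 241 to 305 CPM, ITGA2B at 2085 to 2707), and PF4, a platelet chemokine, was low at 1.10 to 3.03. Knockout levels of the targeted gene ZRSR2 were 29.4, 22.9, 28.3 and 18.7 CPM, and control levels 37.9, 39.2, 39.7 and 41.1 CPM (replicates 1 to 4), with no overlap. Its log2 change was −0.67 (SE 0.15), which edgeR did not call after adjustment.

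SPC24 stood at 21.1 and 19.9 CPM in the controls of experiment 1 and at 33.5 and 30.1 CPM in those of experiment 2. The knockout libraries were at 13.2 and 13.2 CPM in experiment 1 and at 22.0 and 16.1 CPM in experiment 2. In each experiment both knockout libraries lay below both controls. Over all 8 libraries the genotypes overlapped, because knockout replicate 3 was above both controls of experiment 1. Means were 16.1 ± 4.15 CPM in knockout and 26.2 ± 6.69 CPM in control (SD, n = 4 each), a ratio of 61.7%. The controls of experiment 2 were highest and the knockouts of experiment 1 lowest, while the 2 groups between them overlapped.

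**Figure D1:**
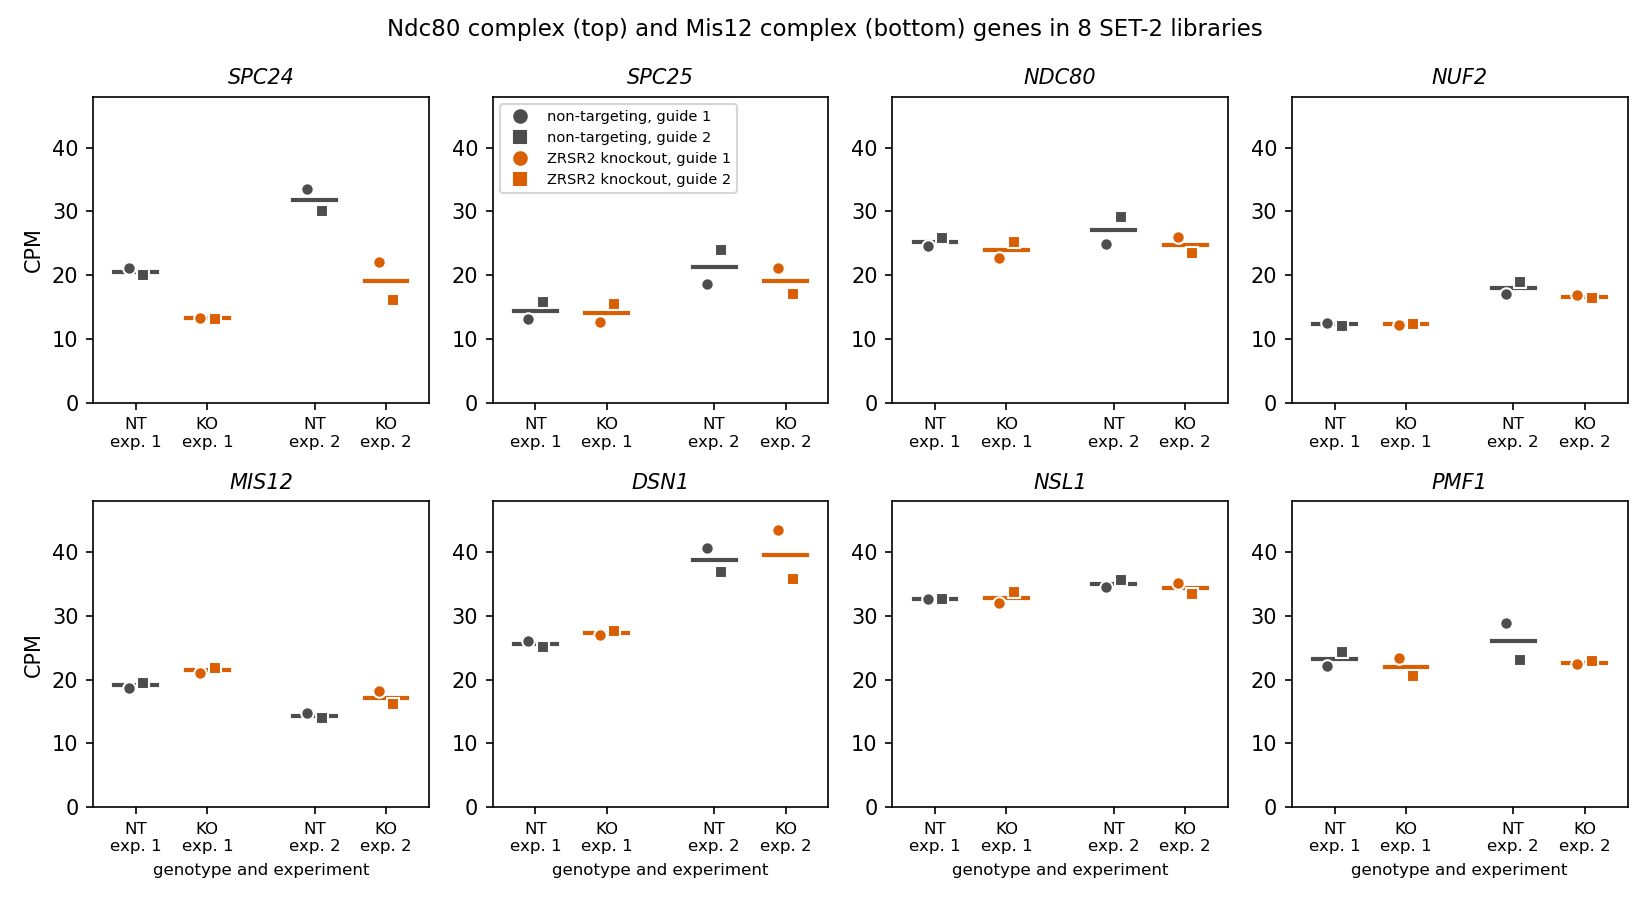
CPM of the 8 genes in each library, with controls (NT) in grey and ZRSR2 knockout (KO) in orange by experiment; circles are guide 1, squares guide 2 and bars the mean of 2 libraries. SPC24 shows knockout points below the control points in both experiments, and the panels for SPC24, SPC25, NUF2 and DSN1 are higher in experiment 2.

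The genotype values are a description, since SPC24 was chosen from this contrast. The log2 fold change of SPC24 was −0.70 (SE 0.23) when edgeR modelled genotype only. This was the 94th lowest of all 14898 tested genes and the 26th lowest among the 11013 with a mean of at least 5 CPM. Without one library at a time it ran from −0.88 to −0.56. This fit has no term for the experiment, so its SE include the spread between experiments, as for every genotype log2 fold change here. With the experiment as a block in edgeR the SPC24 change was −0.69. The choice rested on DESeq2 with the experiment as a block, which called 31 of 14898 genes (0.208%), SPC24 among them. In edgeR's fit 0 genes (0%) were called, with 89 at an unadjusted p under 0.05. Knockout libraries below both own controls in each experiment were found for 3.26% of tested genes.

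Each knockout library was set against the mean of the 2 controls of its own experiment. SPC24 was at 64.4%, 64.2%, 69.2% and 50.7% in knockout replicates 1 to 4. The lowest was guide 2 of experiment 2, which was also the library with the least ZRSR2. That library was also the lowest for SPC25, NDC80, NUF2, DSN1 and NSL1, but not for MIS12 and PMF1. Replicates 1 and 2 had nearly the same SPC24 percent, with ZRSR2 at 29.4 and 22.9 CPM. Over all 8 libraries Pearson's r between the log2 CPM of ZRSR2 and SPC24 was 0.71, and 0.95 with the mean of each experiment subtracted. These r values include the genotype split that chose SPC24. A relation to the ZRSR2 level was not tested. The 7 partners ranged from 80.1% to 127% across the same knockout libraries, so that no partner value came down to the SPC24 range. Because SPC24 was chosen from this contrast, its lower place follows in part from the choice.

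**Figure D2:**
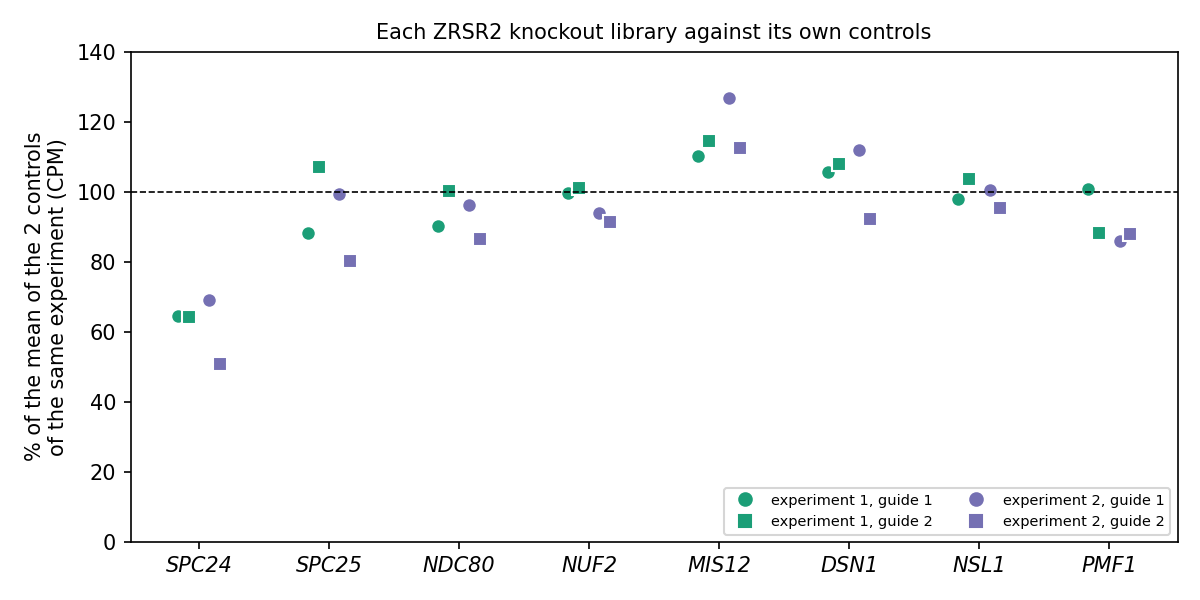
CPM of each gene in each knockout library as a percent of the mean of the 2 controls of the same experiment (dashed line at 100), by experiment (colour) and guide (shape). SPC24 lies between 50.7% and 69.2%, below every partner value, and MIS12 lies between 110% and 127%.

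SPC25, the direct partner of SPC24 in the chromosome-facing end of the rod, had knockout levels of 12.7, 15.4, 21.2 and 17.0 CPM. The controls were at 13.1, 15.7, 18.6 and 23.9 CPM, and the genotypes overlapped in both experiments. Its genotype log2 fold change was −0.11 (SE 0.22), and its sign turned to 0.08 without control replicate 4. The fitted change was thus larger for SPC24, which was chosen from this contrast, than for the subunit it is joined to.

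NDC80, whose head binds the microtubule, was at 22.7, 25.2, 26.0 and 23.4 CPM in knockout. It was at 24.6, 25.8, 24.9 and 29.1 CPM in control, a narrow band in which the genotypes overlapped. NUF2, its partner in the microtubule-facing end, was at 12.2, 12.4, 16.8 and 16.4 CPM in knockout and at 12.5, 12.04, 17.0 and 18.9 CPM in control. NUF2 libraries grouped by experiment, and within experiment 2 both knockouts were just below both controls. The genotype log2 fold changes were −0.10 (SE 0.10) for NDC80 and −0.06 (SE 0.19) for NUF2, and without control replicate 4 they were −0.03 and 0.07.

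MIS12, the subunit that names its complex, was higher in knockout than in both own controls in each experiment. It was at 21.1, 21.8, 18.2 and 16.1 CPM in knockout and 18.6, 19.5, 14.7 and 14.0 CPM in control. Over all tested genes 2.46% showed this order. Its log2 fold change was 0.21 (SE 0.16), and over all 8 libraries the genotypes overlapped.

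DSN1, the subunit that Aurora B phosphorylates to open the complex to the inner kinetochore, was at 27.0, 27.6, 43.4 and 35.8 CPM in knockout and 26.0, 25.2, 40.6 and 36.9 CPM in control. Its libraries separated by experiment, and the genotypes overlapped. NSL1 was the steadiest member, between 32.0 and 35.6 CPM in all 8 libraries. PMF1 was at 23.4, 20.5, 22.4 and 22.9 CPM in knockout and 22.1, 24.3, 28.9 and 23.1 CPM in control, with the highest value in control replicate 3. Genotype log2 fold changes were 0.05 (SE 0.21) for DSN1, −0.01 (SE 0.08) for NSL1 and −0.14 (SE 0.11) for PMF1. The sign for DSN1 was negative, at −0.09, without knockout replicate 3, and that for NSL1 was positive, at 0.03, without control replicate 4.

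SPC24 was then expressed relative to its Ndc80 partners within each library, as its log2 CPM minus the mean log2 CPM of SPC25, NDC80 and NUF2. Gene length cancels when such differences are compared between libraries. The value was −0.20, −0.36, 0.07 and −0.21 in knockout replicates 1 to 4 and 0.41, 0.23, 0.75 and 0.35 in control replicates 1 to 4. No knockout library reached the lowest control. The means were −0.18 ± 0.18 and 0.44 ± 0.22 (SD, n = 4 each), a difference of −0.61, with −0.60 in experiment 1 and −0.62 in experiment 2. Against single partners the difference between genotypes was −0.60 for SPC25, −0.59 for NDC80 and −0.64 for NUF2. Genotypes overlapped only in the measure against NDC80, where knockout replicate 3 (−0.24) lay above control replicate 2 (−0.37). These values describe the contrast that chose SPC24 and were not tested.

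**Figure D3:**
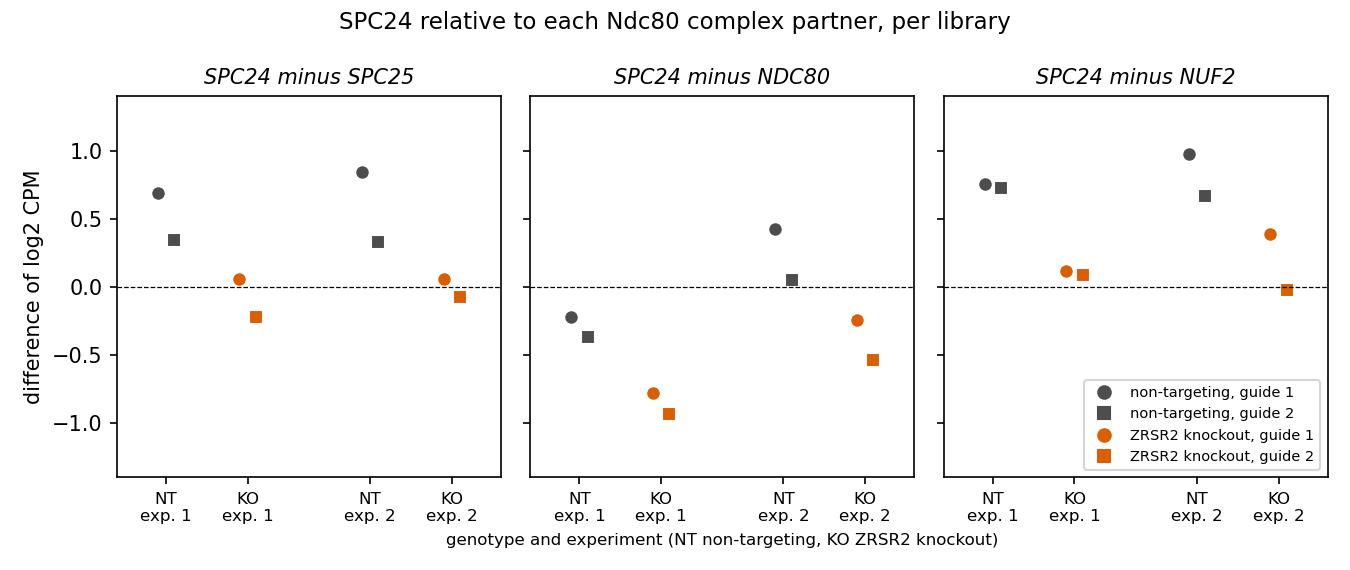
Log2 CPM of SPC24 minus that of SPC25, NDC80 and NUF2 in each library, by genotype and experiment, with guide 1 as circles and guide 2 as squares. Knockout points (orange) lie below the control points (grey) of the same experiment in all 3 panels, and the NDC80 panel also shifts up in experiment 2.

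Levels were compared between genes per kilobase of exonic length. In controls SPC24 was at 9.22 ± 2.36, SPC25 at 9.68 ± 2.52, NDC80 at 7.25 ± 0.581 and NUF2 at 4.49 ± 1.01 CPM per kilobase (SD, n = 4). SPC24 and SPC25 were thus closer to each other than their spread. In knockout SPC24 was at 5.68 ± 1.46 and SPC25 at 8.9997 ± 1.93 CPM per kilobase, and NUF2 remained lowest at 4.30 ± 0.741. With the median length of coding transcripts in place of the exonic length, SPC24 at 6.97 CPM per kilobase was below NUF2 at 7.83 in knockout, and SPC24 at 11.3 was below NDC80 at 12.02 in control. In the Mis12 complex the control levels were 5.30 for MIS12, 8.27 for NSL1, 9.77 for PMF1 and 11.8 for DSN1 CPM per kilobase. That order also depends on the length used, since NSL1 was highest, at 31.7, with the median coding transcript.

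Experiment 2 was compared with experiment 1 across both genotypes, a contrast that the choice of SPC24 did not use. Here 4 members rose, SPC24, SPC25, NUF2 and DSN1, and MIS12 fell, while NDC80, NSL1 and PMF1 did not pass the test. The 5 called members are 62.5% of 8. Over all genes 8671 of 14898 (58.2%) were called by edgeR's quasi-likelihood test, 29.6% higher and 28.6% lower, so the members' share was near the background. The groups differ in collection and, on the assumption above, in day, and these cannot be told apart.

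SPC24 rose from 16.9 ± 4.25 to 25.4 ± 7.86 CPM (SD, n = 4), by 0.58 in log2 (SE 0.11, edgeR adjusted p 9.21e-04). It was higher in experiment 2 with each of the 4 guides. SPC25 rose from 14.2 ± 1.56 to 20.2 ± 3.004 CPM, by 0.50 in log2 (SE 0.13, edgeR adjusted p 0.00544). NUF2 rose from 12.3 ± 0.198 to 17.3 ± 1.13 CPM, by 0.49 in log2 (SE 0.09, edgeR adjusted p 8.41e-04). NDC80, the remaining subunit, was at 24.6 ± 1.33 and 25.9 ± 2.43 CPM, which differ by 0.07 in log2 (SE 0.09, edgeR adjusted p 0.515), and 0.01 to 0.13 with 1 library left out. Libraries of the 2 experiments did not overlap for SPC25 and NUF2, as for 56% of all tested genes, and overlapped for SPC24 and NDC80.

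In the Mis12 complex, DSN1 rose from 26.5 ± 1.08 to 39.2 ± 3.496 CPM, by 0.57 in log2 (SE 0.09, edgeR adjusted p 2.85e-04). MIS12 fell from 20.3 ± 1.44 to 15.8 ± 1.85 CPM, by −0.36 in log2 (SE 0.09, edgeR adjusted p 0.00443). NSL1 and PMF1 had log2 fold changes of 0.08 (SE 0.08) and 0.11 (SE 0.10), with edgeR adjusted p-values of 0.377 and 0.378. The 5 calls held under every alternative that was run, with adjusted p-values of at most 0.0315. DSN1 and MIS12, subunits of one complex, thus moved in opposite directions. DERL2, which shares exonic bases with MIS12, was also lower in experiment 2, at 27.8 ± 1.44 and then 19.6 ± 0.546 CPM. Its part in the MIS12 values was not tested.

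Within the Ndc80 complex the SPC24 level relative to NDC80 was higher in experiment 2 with 4 of 4 guides, by 0.40 to 0.65 on the log2 scale. Relative to SPC25 and to NUF2 it was higher with 2 of 4 guides each, and the mean change was 0.07 and 0.08. This change in balance was not tested.

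The other kinetochore genes were described by list, with log2 fold changes of experiment 2 against experiment 1 and edgeR calls. Of 37 tested genes in the 6 other kinetochore lists, 11 rose, 8 fell and 18 did not pass, with a median of 0.13 against 0.00 over all tested genes. The share called was 51.4%, near the 58.2% of all tested genes, so these counts are no result about the lists. In the spindle checkpoint list, which delays anaphase until chromosomes attach, 3 of 6 rose and 0 fell (50% called, with 29.6% of all tested genes higher). BUB1, a checkpoint kinase, had a log2 fold change of 1.12 (SE 0.11), TTK, the kinase that starts checkpoint signalling, 0.62 (SE 0.14) and BUB1B 0.27 (SE 0.08). In the chromosomal passenger complex 3 of 4 rose (75% called), with AURKB, its kinase, at 0.43 (SE 0.08), CDCA8 at 0.38 (SE 0.09) and INCENP at 0.28 (SE 0.07).

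The constitutive centromere network, the inner layer on which the outer complexes are built, had 4 of 16 tested genes higher and 5 lower, 56.2% called and thus near the background of both directions. CENPH rose with a log2 fold change of 0.61 (SE 0.13). CENPN, which reads the centromeric nucleosome, fell with −0.66 (SE 0.08), and CENPT, another docking site for the Ndc80 complex, fell with −0.60 (SE 0.10). CENPL, the gene with the near-match intron start, fell with −0.36 (SE 0.09), and its genotype log2 fold change was −0.08 (SE 0.15). In the outer corona KNTC1 rose (0.78, SE 0.09) while SPDL1 (−0.49, SE 0.11) and ZW10 (−0.38, SE 0.10) fell. In the Ska complex, which steadies microtubule attachment, SKA3 alone of 3 passed and fell (−0.39, SE 0.08). Neither gene of the Knl1 complex passed.

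**Figure D4:**
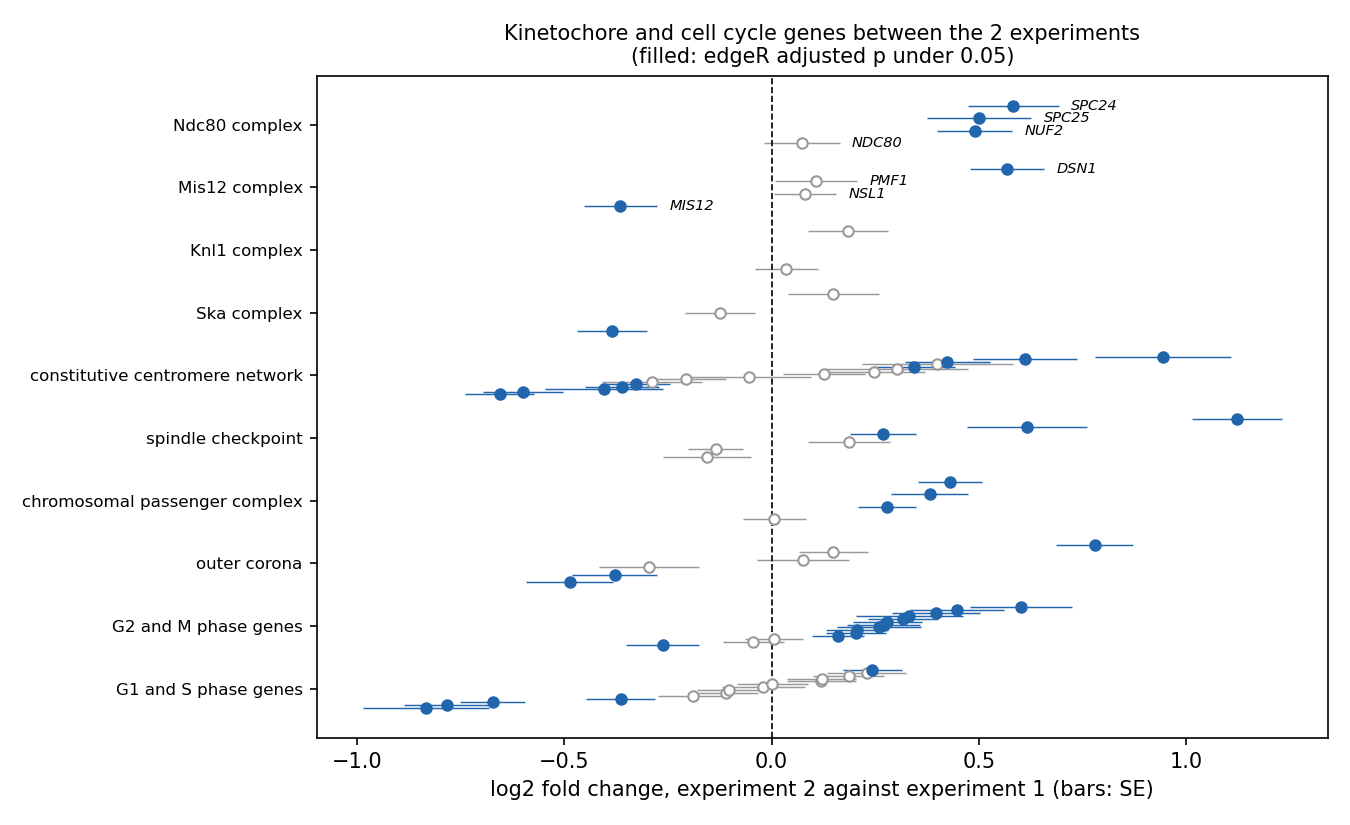
Log2 fold change of experiment 2 against experiment 1 (bars show the SE) for each tested gene of the kinetochore and cell cycle lists, filled where edgeR's adjusted p was under 0.05. SPC24, SPC25, NUF2 and DSN1 lie near 0.5 to 0.6, NDC80, PMF1 and NSL1 near 0, and MIS12 at −0.36.

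Genes of G2 and M phase, when kinetochores assemble, had 11 of 14 higher and 1 lower in experiment 2, with a median of 0.26. The share called was 85.7%, against 58.2% of all tested genes (29.6% higher, 28.6% lower). CDC25C (0.60, SE 0.12), CDK1 (0.45, SE 0.11) and TOP2A (0.40, SE 0.11) changed most among those called. Genes of G1 and S phase had 1 of 14 higher and 4 lower (35.7% called), with a median of −0.06, and CCNE2 (−0.83, SE 0.15), CCNE1 (−0.78, SE 0.10) and RRM2 (−0.67, SE 0.08) fell. The summed level of the G2 and M list was 1825 to 1945 CPM in experiment 1 and 1984 to 2371 in experiment 2. In bulk RNA, fewer cells of a phase and less RNA per cell cannot be told apart, and the part of this shift in the members' values was not tested. Of 9 markers of T, B, fibroblast and epithelial cells, 5 were tested. CD79A and EPCAM rose (1.80, SE 0.11 and 1.58, SE 0.21) and COL3A1 fell (−3.41, SE 0.26). The share called was 60%, near the 58.2% of all tested genes, and COL3A1 had only 6 to 108 counts per library. The list summed to 19.4 to 23.5 CPM in experiment 1 and 48.2 to 67.1 CPM in experiment 2 (19.4 to 55.0 in knockout, 22.6 to 67.1 in control), while MS4A1 was at 0 counts throughout and CD3E at no more than 2 counts. Its part in the members' values was not tested.

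Between genotypes the same lists were described without a test of the list. In the 6 other kinetochore lists 28 of 37 genes (75.7%) had a negative log2 fold change in knockout, against 51.3% of all tested genes, and the median was −0.03 against 0.00. The values ran from −0.24 to 0.19, nearer to 0 than the −0.70 of SPC24. SPC24 was chosen for its lower count in this contrast, so that gap follows in part from the choice. In the G2 and M list 13 of 14 were negative, with a median of −0.10, and its summed level was 1825 to 2207 CPM in knockout and 1920 to 2371 CPM in control.

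The knockout effect on SPC24 was compared between experiments in one fit, a contrast that its choice did not use. The difference was −0.10 on the log2 scale (SE 0.22, edgeR adjusted p 1.00), and for the other members it lay between −0.12 and 0.09. Over all genes 0 (0%) were called by edgeR, with 248 at an unadjusted p under 0.05, and DESeq2 called 0. The sign for SPC24 rested on knockout replicate 4, without which it was 0.10.

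Guides of the same genotype served as the background for SPC24. ZRSR2 guide 2 against guide 1 gave −0.27 (SE 0.37, edgeR adjusted p 1.00), and non-targeting guide 2 against guide 1 gave −0.13 (SE 0.36, edgeR adjusted p 1.00). Each comparison called 0 genes (0%) in edgeR, with 27 and 13 at an unadjusted p under 0.05, and 0 in DESeq2. The signs turned without knockout replicate 3, to 0.15, and without control replicate 3, to 0.25, or control replicate 2, to 0.16. These SE include the spread between experiments. With the experiment as a block the differences were −0.23 (SE 0.15, edgeR adjusted p 1.00) and −0.12 (SE 0.14, edgeR adjusted p 0.937), and 376 and 482 genes had an unadjusted p under 0.05, with 0 called.

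The genes whose pattern over the 8 libraries was most like that of SPC24 were ranked by Pearson's r of log2 CPM among 11012 genes, as a description. The highest were PDIA3P1 (0.97), ITGB7 (0.95), RFC5, a subunit of the replication clamp loader (0.94), CAST, the calpain inhibitor (0.94), and PLEKHG1 (0.93). PDIA3P1 is a pseudogene copy of PDIA3, so its counts are uncertain. After the mean of each experiment was subtracted, the highest were EXOSC5, an RNA exosome subunit (0.98), ZDHHC9, a palmitoyltransferase (0.97), FAM178B (0.96), ALDH3B1, an aldehyde dehydrogenase (0.96), and ZPR1 (0.96). No gene was in both sets of 5. All points share the same 8 libraries, and in the second measure mostly the genotype split that chose SPC24. The first 5 genes carry that split too. Their r was 0.88 to 0.95 with the experiment mean subtracted, and each was lower in knockout in both experiments.

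The complex partners ranked far lower. Over uncentred values r was 0.68 for NUF2, 0.67 for SPC25 and 0.63 for NDC80, and the best of these ranked 1136th. With the experiment mean subtracted, r was 0.56 for NDC80, 0.46 for NUF2 and 0.35 for SPC25. MIS12 ran the other way, at −0.83 and −0.73.

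Promoters of the members were searched for short elements known from cell cycle genes. RefSeq promoters (GRCh38.p14, 250 bases before and 50 from the annotated start) were matched for all 8 members. The CHR, a short element known from genes of G2 and M phase, was searched as TTTGAA or TTCGAA on both strands, and 16.4% of 35116 promoters held it. Among the members SPC25, NDC80 and NUF2 did, with a match within 16 bases of the annotated start. The share of all promoters with a match that near on either side of the start was not computed. The windows are shown with the match in capitals.
SPC25, chr2:168890416-168890445, minus strand: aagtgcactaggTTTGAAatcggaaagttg
NDC80, chr18:2571548-2571577, plus strand: gagaatttcaaaTTCGAAcggctttggcgg
NUF2, chr1:163321958-163321987, plus strand: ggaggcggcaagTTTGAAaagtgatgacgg

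NDC80 holds a further match, TTTGAA on the other strand, that ends at the base before the TTCGAA shown, and SPC25 holds a further match upstream. SPC24, MIS12, DSN1, NSL1 and PMF1 had no match. Whether the matches bear on the changes between experiments was not tested. An E2F element, searched as TTTCCCGC, TTTCGCGC, TTTGCCGC or TTTGGCGC on both strands, was found in 3.31% of promoters and, among the members, in MIS12. The CCAAT box was found in 34.6% of promoters and in SPC24 (3 matches), SPC25, MIS12 and PMF1. Matches are letters in this window and not shown binding sites.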

How the data were processed

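Messenger RNA was sequenced in 8 SET-2 libraries, 4 per genotype, and the authors deposited 1 table of expected counts, estimated by RSEM for each gene symbol. The submitters' processing notes list cutadapt 1.11, RSEM 1.2.30 and build hg19. The aligner, annotation and use of strand are not given in the sources used here. RSEM assigns ambiguous reads by probability, so counts of near-identical or overlapping genes depend on that step. The expected counts were whole numbers. Columns were matched through the library number in each title, and 0 columns belonged to other samples.

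Genes were filtered with edgeR's filterByExpr, normalised with TMM and tested by quasi-likelihood in edgeR. P-values were adjusted by the Benjamini-Hochberg method over the 14898 genes that passed, at a threshold of 0.05. Alternatives were DESeq2, its size factors in edgeR, no filter, at least 10 counts in every library, a replicate block, and each library left out in turn. The median coding transcript length, in place of the exonic length, was added after seeing the data. The fits used genotype alone, 4 cells of genotype by experiment, or 4 guides. SE values were derived from the F statistic, and log2 CPM used a prior count of 2. Calling was tested on simulated data. Software was R 4.3.3, edgeR 4.0.16, limma 3.58.1, DESeq2 1.42.0 and Python 3.11.15.

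The experiment number is shared by knockout and control libraries in the labels. Deviations from genotype means correlated at 0.678 to 0.846 in the 8 pairs of one experiment and −0.816 to −0.709 in the 8 pairs across experiments, so the number was taken to pair samples. Counts of any pair of libraries differed beyond sampling noise (chi-square over its degrees of freedom at least 3.06), so all 8 were kept.

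The members and lists were chosen with earlier results of these data known. Named genes were the members, ZRSR2, up to 3 called genes of largest change per list with a mean of at least 5 CPM, the 5 genes most like SPC24 in either measure, and list genes with a U12-like intron start. DERL2, PMF1-BGLAP, COL3A1 and the markers GATA1, ITGA2B, PF4, MS4A1 and CD3E were named outside this rule. Sequences and coordinates are from GENCODE 29 and RefSeq on GRCh38, which is not the build of the counts and was used only for gene structure.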

Additional observations from a re-analysis of the deposited data

Results flagged for a closer look

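PMF1 in control replicate 3 was at 28.9 CPM, while the other 3 libraries of experiment 2 were at 22.4 to 23.1 CPM, a gap larger than expected for 4 samples. It was the only such value in 34 groups of 4 libraries, where about 1 in 20 is due by chance. Control replicate 3 is also the deepest library. Without it, the log2 fold change of PMF1 between genotypes was −0.06 in place of −0.14, and between experiments 0.02 in place of 0.11.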

How the results depend on the processing

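The 35 results were recomputed to give 331 alternative values, and 316 of these were counted as unchanged. A value was so counted if it changed neither sign nor call or moved by less than the replicate SD. Counts of called genes were so counted within a ratio of 1.5 of the main count, so they could differ by many genes. For knockout against non-targeting, edgeR's 0 calls became 4 in DESeq2 with genotype alone and 31 in DESeq2 with the replicate block by experiment, and remained 0 in edgeR with the replicate block, with 690 at an unadjusted p under 0.05. The block changed no other call: with it both guide comparisons had 0 calls (376 and 482 at an unadjusted p under 0.05). With the guide as a block the SPC24 change between experiments was 0.57. The difference of the knockout effect between experiments had 5 calls without a count filter. Between experiments the count of calls ran from 7178 to 9193 when 1 library was left out. For SPC24, signs turned in 4 fits without 1 library, where an arm rests on 1 sample assumed to vary like the others: 0.103 for the difference of effects without knockout replicate 4 (lowest −0.348, without knockout replicate 3), 0.149 between ZRSR2 guides without knockout replicate 3 (lowest −0.581), and 0.158 and 0.248 between non-targeting guides without control replicates 2 and 3 (lowest −0.448). The cause was not tested. SPC24 relative to its partners differed between genotypes by −0.60 with the median of the partners and −0.61 with a prior count of 0.5. SPC25 was the median partner in every library, so the first value repeats the difference against SPC25 alone.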
